A study of Homo sapiens with 8 samples.

Results

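The transcription factors of the AP-1 and early growth response families were followed in fibroblasts exposed to the secretions of cells entering senescence. The members were chosen by gene symbol and are the 10 genes FOS, FOSB, FOSL1, FOSL2, JUN, JUNB, JUND, EGR1, EGR2 and EGR3, out of 27696 genes in the count table. All 10 were among the 13798 genes that passed the filter on low counts, although a requirement of at least 10 counts in every library would keep 7 and drop FOS, EGR2 and EGR3. IMR90 cells, a strain of human foetal lung fibroblasts, spent 3 days in conditioned medium. Its source was IMR90 ER:RAS cells, which carry an oncogenic RAS that is switched on by 4-OHT. It was taken on day 0, 4, 7 or 10 after 4-OHT, and the recipient cells are called D0, D4, D7 and D10 after the medium they received. Each group has 2 libraries, 1 from each of 2 independent experiments, so that every experiment holds 1 library of each medium. According to the methods, medium was collected without serum, filtered and frozen, and serum was added back at a low concentration before use, in the D0 group as in the others. The recipient cells are of 1 strain and carry no induced RAS, and cells in medium that had met no ER:RAS cells were not analysed here.

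Reads per gene were counted by the authors, with totals between 11708193 and 13395912 per library. The recipients carried the markers of fibroblasts, with all 10 markers fixed for this cell type above 47.1 CPM (counts relative to a library's total, scaled by the TMM method) in every library. Among the markers of other cell types EPCAM, CDH1, PECAM1, CDH5, KDR, PTPRC, CD68 and LYZ stayed at or under 0.992 CPM, KRT19 reached 1.94 and VWF 2.36 CPM, whereas KRT8, KRT18 and TEK were detected throughout, up to 120.4 CPM for TEK. HRAS lay between 33.1 and 66.0 CPM and ESR1, part of the fusion in the producing cells, at or under 0.298 CPM.

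AP-1 is a dimer of basic leucine zipper proteins that binds DNA at the promoters and enhancers of many genes for matrix proteases, cytokines and cell cycle regulators. FOS proteins bind together with a partner such as a JUN protein, while JUN proteins can also pair among themselves. FOS, FOSB, JUN, JUNB and the EGR genes are immediate-early genes, transcribed within minutes of a growth factor, serum or stress signal from factors already in the cell, and their transcripts are short-lived. FOSL1 and FOSL2 respond later and for longer, JUND is present in resting cells, and the EGR proteins are zinc finger factors induced by the same signals.

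Short stretches of promoter are shown for FOS, FOSB and EGR1, the 3 members with the largest differences between libraries. They hold some of the letters through which such signals are known to act. The sequences are from RefSeq (GRCh38.p14, plus strand, 5′ to 3′), lie upstream of the transcribed region, and mark in capitals the core of the cAMP response element (CRE core, TGACGT or its complement ACGTCA) and the CArG box bound by serum response factor.
FOS, chr14:75278678-75278773: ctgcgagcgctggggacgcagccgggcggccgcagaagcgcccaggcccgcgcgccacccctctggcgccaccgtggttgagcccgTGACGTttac
FOSB, chr19:45467846-45467994: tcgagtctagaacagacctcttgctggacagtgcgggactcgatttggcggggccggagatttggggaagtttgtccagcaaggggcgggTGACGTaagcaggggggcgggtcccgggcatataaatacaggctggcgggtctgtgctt
EGR1, chr5:138465329-138465478: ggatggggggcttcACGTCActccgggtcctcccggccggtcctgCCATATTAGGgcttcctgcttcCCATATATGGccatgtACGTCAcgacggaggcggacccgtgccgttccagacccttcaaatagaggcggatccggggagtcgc
The CRE core starts 64 bases before the RefSeq start of FOS and 60 before that of FOSB. EGR1 has CRE cores at 136 and 67 bases and CArG boxes at 105 and 83 bases before its start. The RefSeq table holds 10 windows for 8 of the members, since EGR2 has several starts, and motifs were counted on either strand within 250 bases upstream. A CRE core was in 6 of the 10 windows, 1 for each of 6 genes, compared with 7.10% of the 35093 windows of all genes. The CArG box was in 2 of the 10, of EGR1 and EGR2, and in 1.16% of all windows. Sites farther upstream than 250 bases were not searched. The lack of a match, as for FOS and the CArG box, therefore holds for these bases only. The AP-1 site itself (TGACTCA or TGAGTCA) was in 0 of the 10 and in 4.20% of all windows. EGR cores (GCGTGGG or GCGGGGG) were in 3 of 10 against 20.4%, SP1 boxes (GGGCGG) in 7 of 10 against 42.6%, and NF-kB sites in 1 of 10 against 9.95%. EGR cores and SP1 boxes can share bases, and a match describes letters only.

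The largest differences among these genes lay between the experiments and not between the media. FOS, the first known member of its family (ENSG00000170345.9, GRCh38 chr14:75278774-75282230, plus strand), was nearly silent in experiment 1 and abundant in experiment 2. In experiment 1 FOS had 7, 11, 10 and 31 counts with D0, D4, D7 and D10 medium, or 0.586, 0.853, 0.763 and 2.45 CPM. In experiment 2 it had 3643, 3290, 4465 and 2581 counts, or 265, 245, 339 and 203 CPM. The highest library of experiment 1 was thus far below the lowest of experiment 2, and counting error did not bridge them, since the 31 counts carry an exact Poisson interval (95%) of 21.1 to 44.0. In bulk RNA a higher level in each cell and a larger number of cells with FOS cannot be told apart. Read within each medium, FOS was 452-fold higher in experiment 2 at D0, 287-fold at D4, 444-fold at D7 and 82.9-fold at D10. A fit with medium and experiment as terms put the difference at 7.81 on the log2 scale (SE 0.37, 225-fold, adjusted p = 5.39e-05 by the quasi-likelihood test of edgeR, adjusted after Benjamini and Hochberg), the largest rise of all 13798 genes. This test compares these particular experiments, each with 4 libraries, and no condition named in the labels.

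FOSB, which pairs with JUN proteins as FOS does (ENSG00000125740.13, chr19:45467995-45475179, plus strand), ranked second of all genes. FOSB had 1.34, 1.86, 1.98 and 4.43 CPM in experiment 1, from 16, 24, 26 and 56 counts, and 123, 119, 196 and 142 CPM in experiment 2. Its difference was 5.94 on the log2 scale (SE 0.26, 61.6-fold, adjusted p = 5.39e-05 by the same edgeR test). EGR1, the most abundant EGR gene (ENSG00000120738.7, chr5:138465490-138469315, plus strand), ranked 7 of 13798. EGR1 had 41.5, 28.9, 31.9 and 38.6 CPM in experiment 1 and 417, 355, 469 and 773 CPM in experiment 2, a log2 difference of 3.79 (SE 0.18, 13.8-fold, adjusted p = 5.39e-05). For all 3 genes the libraries of the experiments did not overlap.

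**Figure D1:**
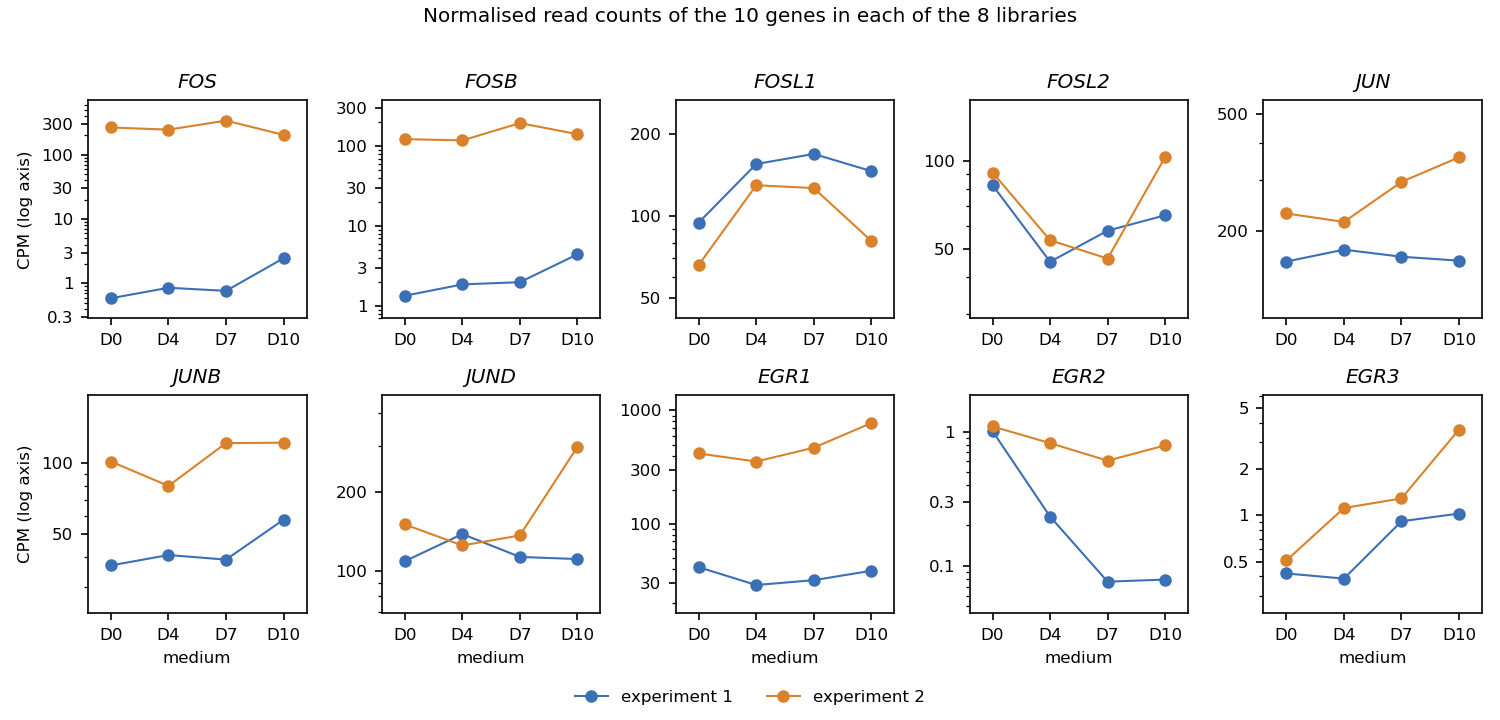
Normalised read counts (CPM, log axis, a scale for each panel) of the 10 genes by medium, with 1 point per library and a line joining the libraries of an experiment. FOS, FOSB and EGR1 are separated by experiment at every medium, while FOSL2 is lower at D4 and D7 than at D0 in both experiments.

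Among the JUN genes, which encode partners of the FOS proteins, JUNB and JUN were also higher in experiment 2, by less. JUND did not pass the test. JUNB (ENSG00000171223.5, chr19:12791496-12793315, plus strand) had 36.9, 40.8, 39.1 and 57.6 CPM in experiment 1 and 102, 80.2, 122 and 122 CPM in experiment 2, a log2 difference of 1.29 (SE 0.13, 2.44-fold, adjusted p = 0.000812 by edgeR). JUN (ENSG00000177606.6, chr1:58780788-58784327, minus strand) had 158, 173, 164 and 159 CPM in experiment 1 and 230.0, 215, 295 and 357 CPM in experiment 2, a log2 difference of 0.72 (SE 0.15, 1.65-fold, adjusted p = 0.00832). Neither gene overlapped between the experiments. JUND, the JUN gene of resting cells (ENSG00000130522.5, chr19:18279760-18281622, minus strand), had 109, 138, 113 and 111 CPM in experiment 1 and 150.4, 125, 137 and 297 CPM in experiment 2. These overlapped, and the log2 difference of 0.50 (SE 0.22) had an adjusted p of 0.110 by edgeR. Genes on the opposite strand cover 14.2% of the exon bases of JUNB (HOOK2) and 3.38% of those of EGR3, and the strand setting of the counting is not given in the sources used here, so a part of their reads may belong to the neighbour.

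FOSL1 (ENSG00000175592.8, chr11:65892049-65900573, minus strand) went the other way. It was 1.42-fold higher in experiment 1 than in experiment 2 (log2 difference of -0.51 for experiment 2, SE 0.12, adjusted p = 0.0126 by edgeR), and lower in experiment 2 with each of the 4 media. This call was lost when either D0 library was left out, with adjusted p of 0.0604 without replicate 1 and 0.0672 without replicate 2. FOSL2 (ENSG00000075426.11, chr2:28392448-28417312, plus strand) did not pass the test, with a log2 difference of 0.19 (SE 0.15, adjusted p = 0.356). EGR3 (ENSG00000179388.8, chr8:22687659-22693302, minus strand), present at 0.388 to 3.62 CPM, had a log2 difference of 1.13 (SE 0.36, adjusted p = 0.0406), which DESeq2 did not call (adjusted p = 0.112) and which was lost on leaving out any 1 library (adjusted p between 0.0515 and 0.175). EGR2 (ENSG00000122877.15, chr10:62811996-62919900, minus strand), with 1 to 15 counts in a library, had 1.39 (SE 0.54, adjusted p = 0.0766), and was called on leaving out either D0 library (2.44 in both, adjusted p = 0.0330 and 0.0353). In all 7 of the 10 members passed the threshold, 6 higher and 1 lower in experiment 2, where 34.8% of all genes tested did, 18.6% higher and 16.2% lower. All 4 libraries of experiment 2 lay above those of experiment 1 for 5 members, FOS, FOSB, JUN, JUNB and EGR1, and for 16.3% of all genes tested.

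**Figure D2:**
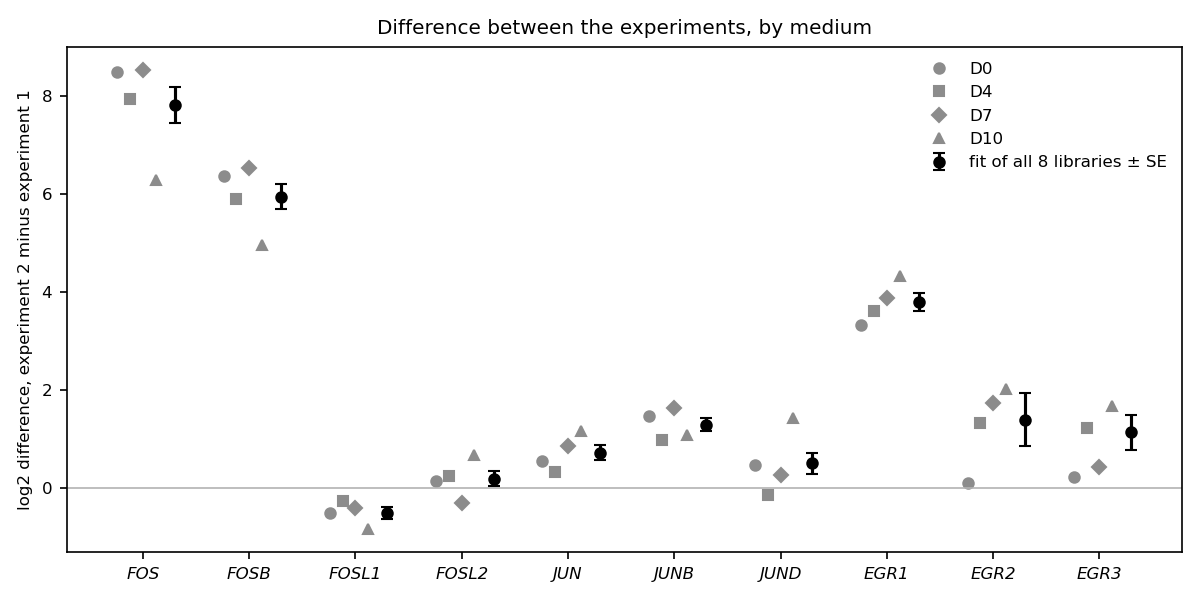
Log2 difference between the experiments (experiment 2 minus experiment 1) for each gene, with grey symbols for the 4 media and a black point with its standard error for the fit of all 8 libraries. FOS and FOSB lie near 8 and 6 on this scale, with the D10 media lowest, and FOSL1 lies below 0 with every medium.

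The same contrast was seen in other immediate-early genes. Of 27 tested genes of this class outside the 10 members, 16 were higher in experiment 2 (59.3%) and 0 lower. Of all genes 18.6% were higher and 16.2% lower, or 34.8% in either direction. The median log2 difference of the 27 genes was 0.60, compared with 0.01 for all genes. The genes named here for this contrast were chosen after their values were seen. NR4A1, a nuclear receptor induced with FOS, had a log2 difference of 3.61 (adjusted p = 0.000151 by edgeR). It lay between 3.68 and 9.41 CPM in experiment 1 and between 48.1 and 92.6 CPM in experiment 2. DUSP1, a phosphatase that switches off MAP kinases, had 1.81 (adjusted p = 0.000151), and ATF3, a partner of JUN that is also on the list of AP-1 partners, 2.08 (adjusted p = 0.00171). MYC was similar in the experiments, with a log2 difference of 0.07 (adjusted p = 0.711). Of 8 genes of the response to heat and handling 0 were higher and 4 lower in experiment 2 (50%, against 16.2% of all genes lower). The 4 were DNAJB1, HSPA1A, HSPA8 and HSPB1. The summed level of the 8 was 2936 to 3596 CPM in experiment 1 and 2063 to 2868 CPM in experiment 2. The 17 MAP kinase genes upstream of AP-1 included 1 that was higher and 4 that were lower (29.4%). Among the 16 tested partners of FOS and JUN proteins 4 were higher and 1 lower (31.2%). Neither share was above the 34.8% of all genes. The summed level of the 10 fibroblast markers was 46792, 34913, 32414 and 34696 CPM at D0, D4, D7 and D10 in experiment 1. In experiment 2 it was 33125, 31652, 30349 and 10119 CPM, the last from the D10 library alone. Of these markers 1 was higher and 2 were lower in experiment 2 (30%, under the 34.8% of all genes). Total counts spanned 12591282 to 13395912 in experiment 1 and 11708193 to 13256455 in experiment 2. The part of these differences in the result was not tested. The time between the last change of medium and the lysis of the cells is not given in the sources used here.

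Because of these differences the make-up of the AP-1 transcripts was not the same in the experiments. Levels were compared between genes only per length, as CPM per kilobase of exon, and summed over the 7 FOS and JUN genes. The sum was 186, 235, 227 and 224 CPM per kilobase at D0, D4, D7 and D10 in experiment 1 and 353, 345, 437 and 473 in experiment 2. FOS and FOSB together made up 0.227% to 0.693% of it in experiment 1 and 18.7% to 32.0% in experiment 2. FOSL1 and FOSL2 together held 33.3% to 43.1% in experiment 1 and 12.1% to 22.1% in experiment 2. The JUN family held 56.6% to 66.5% and 49.8% to 69.2%, ranges that overlap. FOSL1 was therefore the leading FOS family transcript per length in every library of experiment 1, and FOS in every library of experiment 2. The exon union of FOS is longer than its longest transcript, and by the latter the share of FOS alone in experiment 2 was 29.9% in place of 23.1% at D0 and 30.5% in place of 23.9% at D7, and that of FOSB 7.20% to 10.1% in place of 5.41% to 8.08%, while in experiment 1 neither passed 0.497%.

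**Figure D3:**
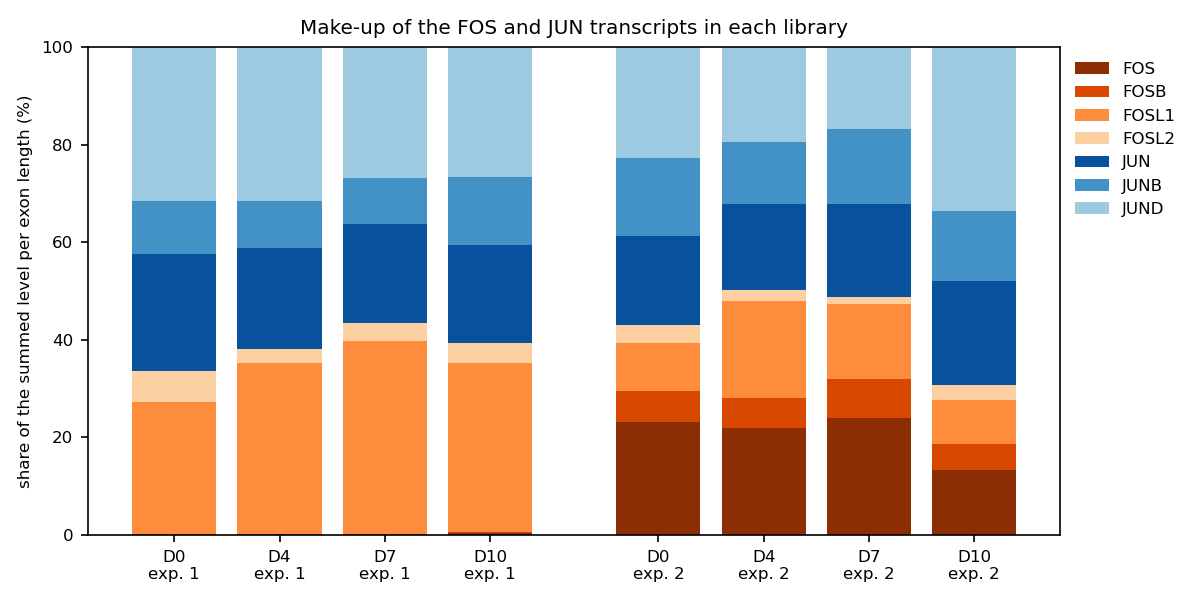
Share of each of the 7 FOS and JUN genes in their summed level per exon length (stacked bars, %), for each library of experiment 1 (left) and experiment 2 (right). FOS and FOSB are barely visible in experiment 1 and take 18.7% to 32.0% in experiment 2.

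The order of the single genes per length was also different. In the D0 library of experiment 1 JUND led with 58.5 CPM per kilobase, before FOSL1 with 50.3, JUN with 44.6, JUNB with 20.3, EGR1 with 13.2 and FOSL2 with 11.5. FOSB, FOS, EGR2 and EGR3 were all under 0.3 CPM per kilobase there. In the D0 library of experiment 2 EGR1 led with 133 CPM per kilobase, before FOS with 81.8, JUND with 80.7, JUN with 65.0, JUNB with 55.9, FOSL1 with 35.1 and FOSB with 22.2. Over the 4 libraries of experiment 2 the levels per kilobase of FOS (62.8 to 105), JUND (67.2 to 160) and JUN (60.8 to 101) overlapped, so their order is not fixed by these data. Those of JUND (58.5 to 74.2) and FOSL1 (50.3 to 89.7) overlapped in experiment 1. EGR2 and EGR3 were the 2 lowest in all libraries of experiment 2.

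The question put by the design is whether the members changed with the day of the medium. In the fit by medium alone none passed the threshold of an adjusted p under 0.05 at D4, D7 or D10 against D0 (edgeR's quasi-likelihood test, 0 of 10 each time, against 0%, 0% and 0.29% of all genes, the last made up of 0.196% higher and 0.0942% lower). With no adjustment p was under 0.05 for 2 members at D4, 2 at D7 and 1 at D10, and DESeq2 also called 0 on each day. A replicate block takes the difference between the experiments out of the spread, and with it 0 members were called at D4, where 0.087% of all genes were higher and 0.188% lower (0.275% in all). At D7 1 member was called, FOSL1, which was higher, as were 0.507% of all genes, with 0.739% lower (1.25% in all). At D10 1 member was called, EGR3, which was higher, as were 2.54% of all genes, with 2.44% lower (4.97% in all). With no adjustment the blocked fit had p under 0.05 for 2, 3 and 3 members at D4, D7 and D10. Of the 13798 genes tested 1124, 1456 and 2517 were under 0.05 in this way. No member differed between D4 and D7 or between D7 and D10 in either fit. At an unadjusted p under 0.05 the fit by medium alone gave 0 and 1 members there and the blocked fit 0 and 3, and the blocked fit called 0% and 0.319% of all genes, the latter being 0.304% higher and 0.0145% lower. Between D7 and D10 FOSL2 and JUND were called in the blocked fit with no filter (0.67 and 0.62, adjusted p = 0.0113 and 0.0334). Leaving out D10 replicate 1 leaves D10 with 1 library. The blocked log2 changes between D7 and D10 were then -0.69 for FOS, -0.63 for FOSL1, 0.99 for FOSL2, 1.18 for JUND and 0.86 for EGR1.

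**Figure D4:**
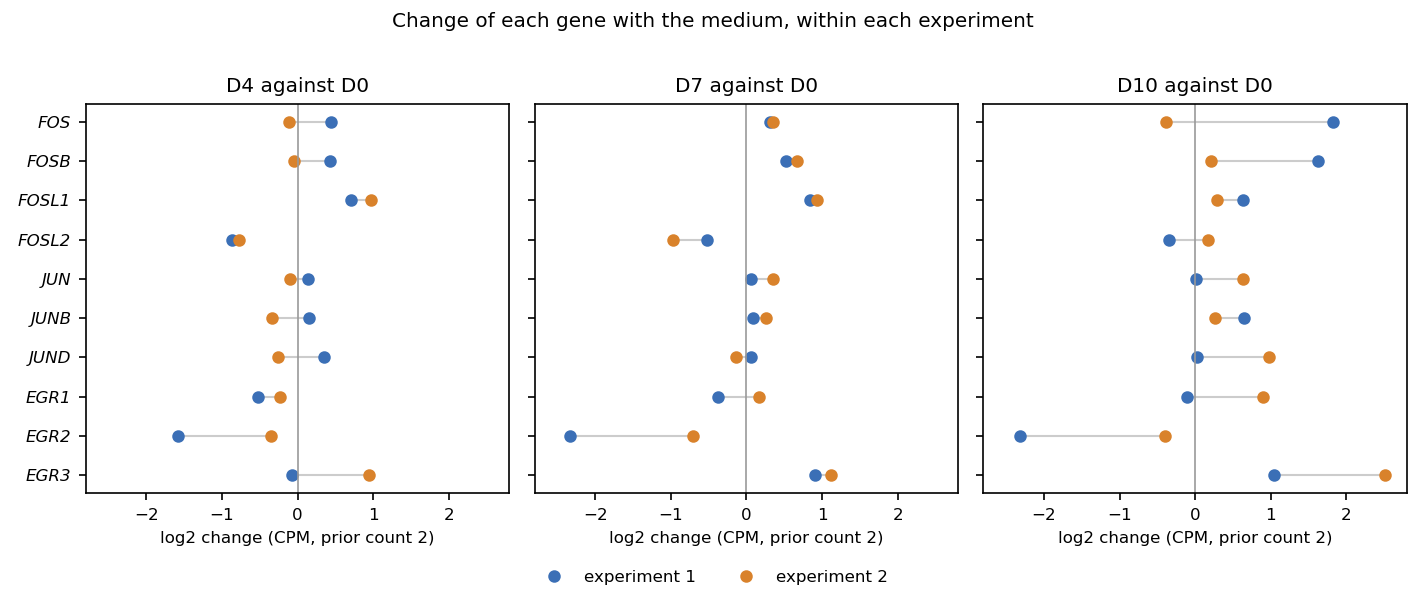
Log2 change of each gene against the D0 library of the same experiment, for D4, D7 and D10 medium, with 1 point for each experiment joined by a grey line. FOSL1 lies above 0 and EGR2 below 0 in all 3 panels, FOSL2 lies near -0.8 at D4, and the experiments differ most for FOS, FOSB, EGR2 and EGR3 at D10.

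FOSL1 (FRA1), a late and stable member of the FOS family, was above its D0 level with every later medium. It had 94.8, 155, 169 and 146 CPM in experiment 1 and 66.3, 130.0, 127 and 81.2 CPM in experiment 2. Every later library was above the D0 library of its experiment, as for 8.73% of all genes, and D10 of experiment 2 was the closest to it. The log2 changes in experiment 1 were 0.71 at D4, 0.84 at D7 and 0.63 at D10, and in experiment 2 they were 0.97, 0.93 and 0.29. The fit by medium alone gave 0.83 (SE 0.34), 0.88 (SE 0.34) and 0.50 (SE 0.34), with adjusted p of 1, 1 and 0.958 by edgeR. With the block the values were 0.85 (SE 0.17, adjusted p = 0.105), 0.89 (SE 0.17, adjusted p = 0.048) and 0.47 (SE 0.17, adjusted p = 0.174). With DESeq2 and a block FOSL1 was called at D4 (0.86, adjusted p = 0.00266) and at D7 (0.90, adjusted p = 0.000759), and edgeR with the block but no filter on low counts gave adjusted p of 0.000432 and 0.000104. At D4 the blocked edgeR fit also called it without either D10 library (adjusted p = 0.00159 and 0.00254). The call at D7 was lost on leaving out either D0 library (0.344 and 0.587), either D4 library (0.0597 and 0.065) or either D7 library (0.194 and 0.499), with log2 changes between 0.82 and 0.95.

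FOSL2 (FRA2), its closest relative, had lower levels with D4 and D7 medium. FOSL2 had 82.6, 45.2, 57.8 and 65.2 CPM in experiment 1 and 91.3, 53.5, 46.3 and 103 CPM in experiment 2. At D4 and D7 all 4 libraries were below both D0 libraries, while at D10 1 was below and 1 above. The fit by medium alone gave a log2 change of -0.82 at D4 (SE 0.27), -0.74 at D7 (SE 0.27) and -0.05 at D10 (SE 0.27), with adjusted p of 1, 0.910 and 0.998 by edgeR. With the block the adjusted p was 0.205 at D4 and at D7, so FOSL2 passed the test in neither fit. It was called in the blocked fit with no filter on low counts (adjusted p = 0.000704 at D4 and 0.00355 at D7) and without either D10 library (0.00622 and 0.00806 at D4, 0.00779 and 0.0100 at D7), with log2 changes between -0.82 and -0.72. Across the 8 libraries, after removal of the mean of each experiment, the log2 CPM of FOSL1 and FOSL2 had r = -0.87. The libraries share their D0 groups and their scaling, and this r is a description.

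FOS and FOSB, which differed most between the experiments, passed the test with no medium. At D7 both were above D0 in both experiments, by 0.31 and 0.35 for FOS and 0.52 and 0.67 for FOSB on the log2 scale. In the blocked fit the change of FOS at D7 was 0.33, and it was -0.71 without D7 replicate 2. FOS at D10 was 1.82 higher on the log2 scale than at D0 in experiment 1, and in experiment 2 the difference was -0.38. For FOSB these differences were 1.62 and 0.21. In experiment 1 they rest on 31 against 7 counts for FOS and 56 against 16 for FOSB, whose Poisson intervals (95%) of 21.1 to 44.0 and 2.81 to 14.4, and of 42.3 to 72.7 and 9.15 to 26.0, did not overlap. With 1 library for each medium and experiment this opposite course of FOS could not be tested. Since the fit by medium alone takes the difference between the experiments as spread, its standard errors at D10 were 2.82 for FOS, 2.36 for FOSB and 1.72 for EGR1, and changes smaller than several log2 units could not be detected there. With the block they were 0.45, 0.33 and 0.23, around log2 changes of 0.18, 0.67 and 0.42 (adjusted p = 0.885, 0.334 and 0.394 by edgeR). Leaving out a D10 library leaves that group with 1 experiment. Without D10 replicate 2 the blocked fit gave log2 changes of 1.83 for FOS and 1.60 for FOSB at D10. Without D10 replicate 1 it gave -0.35 for FOS and 0.78 for EGR1. FOSB was called at D10 in the blocked fit without a filter on low counts (0.68, adjusted p = 0.0352). At D7 it was called without either D10 library (0.64 in both, adjusted p = 0.0452 and 0.0486), while without D7 replicate 2 its value was -0.061. FOS and FOSB varied together within the experiments (r = 0.93 over 8 libraries), as did FOSB and JUNB (r = 0.85).

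Among the JUN genes, D10 of experiment 2 was the highest library for JUN (357 CPM), JUNB (122 CPM, level with D7) and JUND (297 CPM). In experiment 1 JUN stayed between 158 and 173 CPM over all media and JUND between 109 and 138 CPM. The log2 change of JUND at D10 was 0.03 in experiment 1 and 0.98 in experiment 2, and that of JUN 0.01 and 0.64. For JUNB the changes were 0.64 and 0.27. None passed the test with the block, where the log2 changes at D10 were 0.34 for JUN, 0.45 for JUNB and 0.58 for JUND (adjusted p = 0.448, 0.231 and 0.375 by edgeR). The values of JUN and JUND rest on the single D10 libraries. Without D10 replicate 1 the blocked fit gave 1.13 for JUND and 0.65 for JUN, and without D10 replicate 2 it gave -0.11 and 0.022. JUND was called in the blocked fit with no filter on low counts (0.59, adjusted p = 0.0311). JUN and JUND varied together within the experiments, with r = 0.82 over the 8 libraries.

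The EGR genes took separate courses. EGR1 in experiment 2 was highest at D10 (773 CPM, against 417 at D0), whereas in experiment 1 its D10 level of 38.6 CPM was below the 41.5 CPM of D0. EGR3 was scarce, and highest with D10 medium in both experiments. It had 5, 5, 12 and 13 counts in experiment 1 and 7, 15, 17 and 46 in experiment 2, which is 0.418, 0.388, 0.915 and 1.03 CPM and 0.509, 1.12, 1.29 and 3.62 CPM. Only D4 of experiment 1 was below its D0 library. At D10 the log2 change was 2.30 (SE 0.76, adjusted p = 0.378 by edgeR) without and 2.22 (SE 0.52, adjusted p = 0.0464) with the block, and DESeq2 with the block gave an adjusted p of 0.0706. On leaving out 1 library the blocked fit kept this call without D10 replicate 1 (log2 change 2.64, adjusted p = 0.0035) and lost it in the 7 other cases, its log2 change being 1.56 without replicate 2 of D10 and 1.60 without replicate 2 of D0. EGR2, a factor known from myelination and T cell tolerance, had 12, 3, 1 and 1 counts in experiment 1 and 15, 11, 8 and 10 in experiment 2. All 6 later libraries were below D0 of their experiment, as for 10.8% of all genes. The single counts at D7 and D10 carry Poisson intervals (95%) of 0.0253 to 5.57, and the fit by medium alone gave adjusted p of 1, 1 and 0.998 for EGR2 at D4, D7 and D10. With the block EGR2 was called by edgeR on none of these days. Its unadjusted p was under 0.05 there at D7 only.

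Other genes of the pathway were taken from lists and read at D10. Of the 27 tested immediate-early genes outside the members 0 passed by edgeR without the block (10 at an unadjusted p under 0.05, 5 by DESeq2) and 8 with it, all 8 higher (29.6%, against 2.54% of all genes). Their median log2 change with the block was 0.29, compared with 0.01 for all genes. The largest rises were those of PTGS2, the inducible cyclooxygenase (log2 change 5.33, adjusted p = 2.89e-05 by edgeR with the block), and NR4A2, a relative of NR4A1 (4.41, adjusted p = 5.26e-05). PTGS2 had 1.34 CPM at D0 and 41.1 at D10 in experiment 1, and 4.36 and 208 in experiment 2. NR4A2 had 2.68 and 55.0 CPM in experiment 1 and 6.91 and 153 in experiment 2. Unlike FOS these genes were higher at D10 in both experiments. Without the block neither passed, NR4A2 with an adjusted p of 0.0744.

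**Figure D5:**
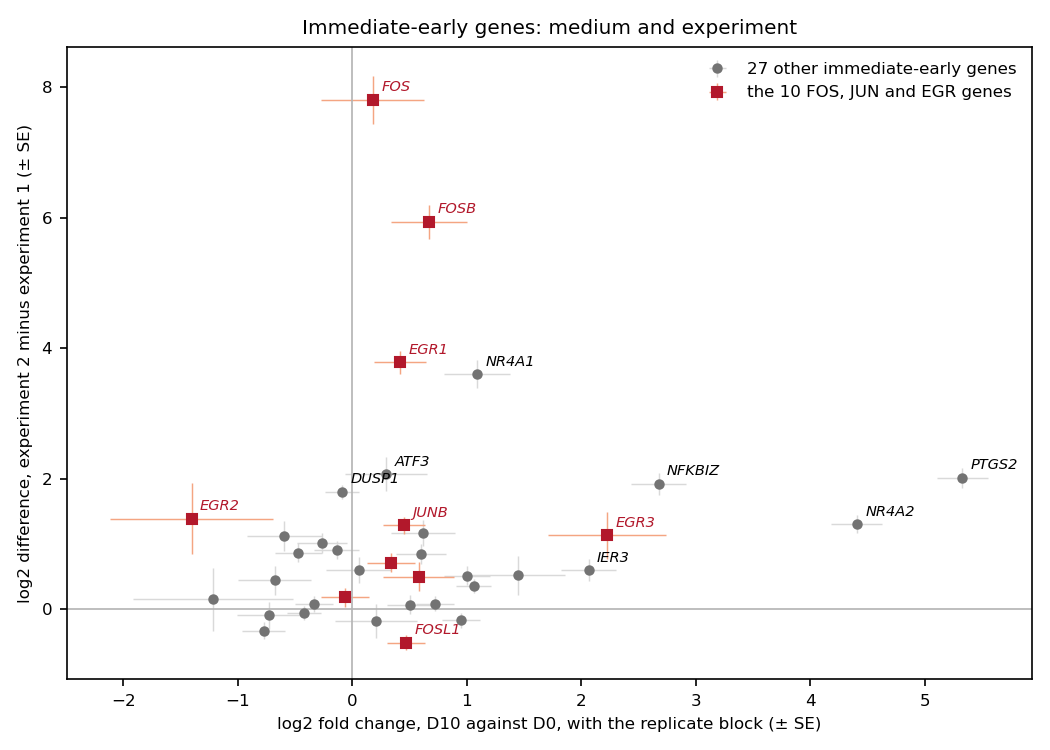
Log2 change at D10 against D0 in the fit with the replicate block (horizontal, ± SE) against the log2 difference between the experiments (vertical, ± SE) for the 10 FOS, JUN and EGR genes (red squares) and 27 other immediate-early genes (grey circles). FOS, FOSB and EGR1 stand high on the vertical axis and near 0 on the horizontal axis, and PTGS2 and NR4A2 stand far to the right.

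Of 16 tested partners of the FOS and JUN proteins 1 was called at D10 with the block (6.25%, against 4.97% of all genes in either direction). It was the small MAF protein MAFF, which rose (log2 change 1.30, adjusted p = 0.0044 by edgeR). MAFF went from 37.2 to 82.7 CPM in experiment 1 and from 37.7 to 102 CPM in experiment 2. Of the 17 MAP kinase genes 1 was called (5.88%), MAPK13 or p38 delta, which rose (1.00, adjusted p = 0.0054). Both shares lie near that of all genes. Serum response factor and its ternary complex partners had 0 of 6 called by edgeR in either fit (2 at an unadjusted p under 0.05 without and 4 with the block) and 0 by DESeq2. NAB1, a corepressor of EGR proteins, rose (1.01, adjusted p = 0.0171), and NAB2, itself known as an EGR target, had 0.07 (adjusted p = 0.877). Genes described as AP-1 targets were mostly higher. Of 15 tested, 2 passed without the block, the collagenase MMP1 (log2 change 5.68, adjusted p = 0.0106) and the urokinase PLAU (2.29, adjusted p = 0.048). With the block 11 passed, 10 higher and 1 lower (73.3%, against 4.97% of all genes), with a median log2 change of 2.21. The largest rises were those of the chemokine CXCL8 (9.21, adjusted p = 0.000747) and the protease MMP3 (7.52, adjusted p = 0.0201). The experiments differed in the size of both. CXCL8 had 1.00 CPM at D0 and 188 at D10 in experiment 1, and 2.76 and 3008 in experiment 2. MMP3 had 19.5 and 253 CPM in experiment 1 and 4.29 and 3323 in experiment 2. HMOX1, haem oxygenase, fell by 1.35 on the log2 scale (adjusted p = 0.0262). Of 9 tested EGR targets 1 was called (11.1%), FGF2, which rose (0.93, adjusted p = 0.0311). Of the 8 heat and handling genes 1 was called (12.5%), HSPB1, which fell by 1.05 (adjusted p = 0.0198). Of the 10 fibroblast markers 2 were called (20%). PDGFRB fell by 1.40 (adjusted p = 0.0181) and DCN by 1.75 (adjusted p = 0.0362). Of 3 tested epithelial markers 1 was called (33.3%), the keratin KRT18, which fell by 0.80 (adjusted p = 0.022). Of the 2 endothelial and 1 blood cell markers tested 0 were called by edgeR or DESeq2 (0 and 1 at an unadjusted p under 0.05 with the block). The list members were chosen with results of these data known, and their counts are descriptions.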

How the data were processed

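RNA of 8 libraries in 4 groups was sequenced after poly(A) selection with a stranded kit. The values deposited by the authors are unnormalized read counts by gene, whole numbers whose totals have a median of 13215100, and beside them 8 columns of RPM values that the authors normalized, which were not used. The submitters' processing notes name STAR 2.5, DESeq2 and GRCh38, and give no role. The header of 1 column reads DO and was taken as D0 replicate 1. All 10 identifiers are in GENCODE 29 with the same version, and exon lengths come from it. The members and lists were chosen with earlier results of these data known. Genes were filtered with filterByExpr and fitted by group with edgeR 4.0.16 (TMM, glmQLFit and glmQLFTest, R 4.3.3), called at a Benjamini-Hochberg adjusted p under 0.05, two-sided. The difference between experiments was tested beside the group. Log2 CPM and changes within an experiment used a prior count of 2. Alternatives were a replicate block, DESeq2 1.42.0, DESeq2 size factors in edgeR, no filter, a minimum of 10 counts throughout, a fit of the compared groups alone and leaving out each library, and after the data were seen the same tools, filter and omissions with the block. The replicate numbers pair the libraries, as the methods describe 2 independent experiments and same-numbered libraries deviated together in all 6 pairs of groups (r between 0.418 and 0.722 across genes). The block lowered the common dispersion from 0.0792 to 0.0242. Named genes are the members, from each list the 2 largest rises and falls past the threshold at D10 in each fit, the 2 genes most like each member, HRAS, ESR1 and cell type markers. The methods were tested on simulated data. Intervals on counts cover counting error only. Figures were drawn with Python 3.11.15.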

Additional observations from a re-analysis of the deposited data

How the results depend on the processing

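The members called between the experiments were 7, and between 5 and 9 over the alternatives. FOS, FOSB, JUN, JUNB and EGR1 kept their direction and their call under every alternative that tested them, FOS being left out where at least 10 counts were asked for in every library. Without a filter JUND (0.50, adjusted p = 0.00175) and EGR2 (1.40, adjusted p = 0.0313) were also called, and EGR2 on leaving out either D0 library (2.44 in both). The genes called between the experiments were 2074 to 5557 on leaving out 1 library, against 4805. By medium, the numbers of genes called by DESeq2 were 48 (D4), 117 (D7), 390 (D10), 1 (D7 against D4) and 66 (D10 against D7), where edgeR called 0, 0, 40, 0 and 0. Without a filter these were 21, 93, 371, 1 and 77. The replicate block gave 38, 172, 686, 0 and 44, and 1 member each at D7 and D10. At D10 at least 10 counts in every library gave 20 genes, the compared groups only 0, and leaving out 1 library 0 to 153. Between D7 and D10 leaving out 1 library gave 0 to 47. The block turned the sign of FOSB at D4 (0.051), EGR1 at D7 (-0.11) and FOS at D10 (0.18), none of them called, and changed no other call of a member than those given with the results. Within the blocked fit the sign turned for several members on leaving out 1 library, and not all cases are listed here. At D7 it turned for FOSB (-0.061) and FOS (-0.71 without D7 replicate 2, against 0.33). At D10 it turned for FOS (-0.35), JUND (-0.11) and FOSL2 (0.26 without D10 replicate 1, against -0.063). At D4 it turned for FOS (0.98 without D0 replicate 2, against -0.036) and FOSB (-0.11 without D0 replicate 1, against 0.051). Between D7 and D10 it turned for FOSB (-0.40 without D10 replicate 1, against 0.059) and JUND (-0.065). It also turned there for FOS (1.48 without D10 replicate 2, 0.87 without D7 replicate 2, and 0.53 by DESeq2, against -0.15).

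Leaving out 1 library of a compared group leaves that group with 1 experiment, and the lone library is assumed to vary like the others. The log2 changes without the block then ranged, at D4, from -7.27 to 7.69 for FOS, -5.06 to 5.49 for FOSB, -2.99 to 2.21 for EGR1, -0.24 to 0.30 for JUN, -0.76 to 0.71 for JUNB, -0.19 to 0.27 for JUND and -0.26 to 1.24 for EGR3. At D7 they ranged from -7.43 to 8.15 for FOS, -4.97 to 6.20 for FOSB, -2.85 to 2.59 for EGR1, -0.24 to 0.61 for JUN, -0.83 to 1.12 for JUNB and -0.27 to 0.20 for JUND. At D10 they ranged from -5.75 to 7.43 for FOS, -3.81 to 5.77 for FOSB, -2.57 to 3.29 for EGR1, -0.42 to 0.27 for FOSL2, -0.29 to 0.91 for JUN, -0.27 to 1.29 for JUNB and -0.22 to 1.22 for JUND. With the length of the longest transcript in place of the exon union the mean share of JUN in the AP-1 transcripts was 17.7% at D7 and 19.1% at D10 and that of JUNB 13.1% at D10, against 19.7%, 20.7% and 14.2%. Depth limits FOS and FOSB in experiment 1 and EGR2 and EGR3 throughout.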

Other observations

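For each member the genes whose course was most like its own were found by the correlation of log2 CPM over the 8 libraries after removal of the mean of each experiment. Many genes compete for the highest value over so few libraries, so these are descriptions. FOSL1 was most like SOX9 (r = 0.99) and HMGA1 (r = 0.99), and FOSL2 like TXNRD3 (r = 0.99) and TTC39B (r = 0.98). FOS was most like RPS7P1 (r = 0.98) and CIR1 (r = 0.97), and FOSB like AC007406.5 (r = 0.98) and PRSS53 (r = 0.96). JUN was most like AC012360.3 (r = 1.00) and CREB3L4 (r = 0.98), JUNB like LINC01138 (r = 0.95) and AC139768.1 (r = 0.95), and JUND like SLC37A4 (r = 0.99) and LPCAT4 (r = 0.99). EGR1 was most like ARHGEF19 (r = 0.98) and WDR19 (r = 0.97), EGR2 like PCBP3 (r = 0.99) and SRR (r = 0.97), and EGR3 like NPAS2 (r = 0.99) and PHEX (r = 0.99). None of the 10 members was the closest gene of another.

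FOSL2, EGR1, EGR2, FOS, FOSB and JUND hold the CRE core within 250 bases of a RefSeq start, and in that order their log2 changes at D10 with the replicate block were -0.06, 0.42, -1.40, 0.18, 0.67 and 0.58. Their log2 differences between the experiments were 0.19, 3.79, 1.39, 7.81, 5.94 and 0.50. For JUN and JUNB, whose windows hold no CRE core, these differences were 0.72 and 1.29. A link of the CRE core to either value was not tested.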
